A study of Mus musculus with 8 samples.

Results

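Hoxa3, Hoxa5, Hoxa7, Hoxa9, Hoxa10, Hoxb4, Hoxb5, Meis1 and Pbx3 are 9 homeobox genes of the HOX, MEIS and PBX families. They were followed in mouse multipotent progenitors through every probe set, a group of array probes read as 1 value, that the platform annotation assigned to exactly 1 of them. This gave 19 probe sets of 34945 annotated to a single gene, and 9 genes of 18193. The genes had 1 to 4 probe sets each. The study compared cells of wild type mice with cells of mice with FLT3-ITD, an internal tandem duplication of FLT3, a receptor tyrosine kinase of early blood progenitors. All mice were female, C57BL6 and 8 to 10 weeks old. Bone marrow cells were taken that were c-Kit, Sca-1 and CD48 positive but negative for lineage markers and CD150, the surface phenotype of lympho-myeloid multipotent progenitors. Each genotype had 4 arrays, replicates 1, 2, 3 and 037. The last is a second sample numbered 1, with a tag that the labels do not explain. The labels give neither the origin of the FLT3-ITD allele nor the number of mice per replicate. The spread between replicates, on which every p-value rests, may therefore be technical.

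HOX proteins are homeodomain transcription factors that bind DNA together with cofactors of the TALE class, to which PBX and MEIS proteins belong. In blood formation the HOXA and HOXB genes are most active in stem cells and early progenitors and are switched off as cells mature. HOXA9 with MEIS1 maintains progenitor self-renewal, and their forced joint expression produces acute myeloid leukaemia in mice.

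The promoters of Hoxa9 and Meis1 are shown because the clearest separations between genotypes were in these genes. Each is the stretch of 250 bases upstream of the annotated start, from RefSeq on GRCm38.p6, read 5′ to 3′ on the gene's strand. Capitals mark the homeodomain core TAAT on either strand.
Hoxa9, chr6:52227371-52227620, minus strand: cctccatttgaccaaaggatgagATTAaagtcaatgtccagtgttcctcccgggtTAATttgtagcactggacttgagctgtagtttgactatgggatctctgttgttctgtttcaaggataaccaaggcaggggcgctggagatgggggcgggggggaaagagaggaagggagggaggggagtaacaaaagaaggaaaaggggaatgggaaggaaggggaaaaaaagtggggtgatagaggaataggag
Meis1, chr11:19018970-19019219, minus strand: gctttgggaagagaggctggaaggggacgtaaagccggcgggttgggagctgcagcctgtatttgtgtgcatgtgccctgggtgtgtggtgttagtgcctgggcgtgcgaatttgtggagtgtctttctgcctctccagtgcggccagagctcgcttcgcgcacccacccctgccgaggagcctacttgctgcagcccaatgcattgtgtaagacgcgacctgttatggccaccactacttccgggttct
The Hoxa9 stretch held 2 homeodomain cores and the Meis1 stretch held none. RefSeq gave 8 such promoters for 7 of the genes, those of Hoxb5 and Pbx3 not being analysed here. At least 1 core was present in 6 of these 8, against 54.9% of 32851 promoters of the same length. The MEIS motif TGACAG was present in 1 of 8, that of Hoxa3, against 15.9% of all. Neither the PBX-HOX motif TGATNNAT, present in 7.68% of all promoters, nor the STAT motif TTCNNNGAA, present in 7.02%, was found in these 8 stretches. Both strands were read for every motif. The Hoxa9 stretch had 3 CpG dinucleotides and a GC content of 49.6%, and the Meis1 stretch 13 and 59.6%. The medians over all promoters were 6 and 52.4%. These matches describe letters and do not show binding.

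All values below are log2 expression values as deposited, and every difference is FLT3-ITD minus wild type on that scale. A value on the log2 scale is relative to its own probe set. Levels of different probe sets were therefore compared only to filter out dim ones and to pick the brightest of a gene. Array medians lay between 5.98 and 6.05. FLT3-ITD replicate 1 stood apart, correlating at 0.948 to 0.959 with each remaining array. The 3′ minus 5′ difference of the Gapdh control, a measure of RNA quality, was highest in FLT3-ITD replicate 037, at 2.99 against 1.82 to 2.29. A probe set was tested if it exceeded the median of the array in 4 or more of 8 arrays. Of the 19 probe sets 13 were tested, and of the 9 genes 7, Hoxb5 and Pbx3 being too dim. Because the cells were measured in bulk, fewer cells of a type and less RNA per cell cannot be told apart.

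No member passed the limma threshold, an adjusted p of 0.05 over all tested features, either among the 19208 tested probe sets or among 10762 genes read through their brightest probe set. In the whole comparison 0.12% of probe sets passed as lower in FLT3-ITD. Among genes, 0.177% passed as lower and 0.427% as higher. The difference was negative for 12 of the 13 tested member probe sets, against 48.7% of all tested probe sets. Their median was −0.49, against 0.01 over all tested probe sets. At an unadjusted limma p of 0.05, 4 were lower, both of Hoxa9 and a pair of Meis1, against a background of 4.09%. The genotypes did not overlap for 3 of the 13, all lower in FLT3-ITD, against a background of 2.69%. These 3 were both probe sets of Hoxa9 and Meis1 1443260_at. Without FLT3-ITD replicate 1 the number of negative differences was 10 of 13, and without wild type replicate 037 it was 11. The 13 probe sets read only 7 genes, so they are not independent of each other. Read through the brightest probe set, 6 of the 7 genes had a negative difference, against 46.3% of all tested genes. At an unadjusted limma p of 0.05, 1 of these 7 genes was lower, Hoxa9, against 413 of 10762.

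**Figure D1:**
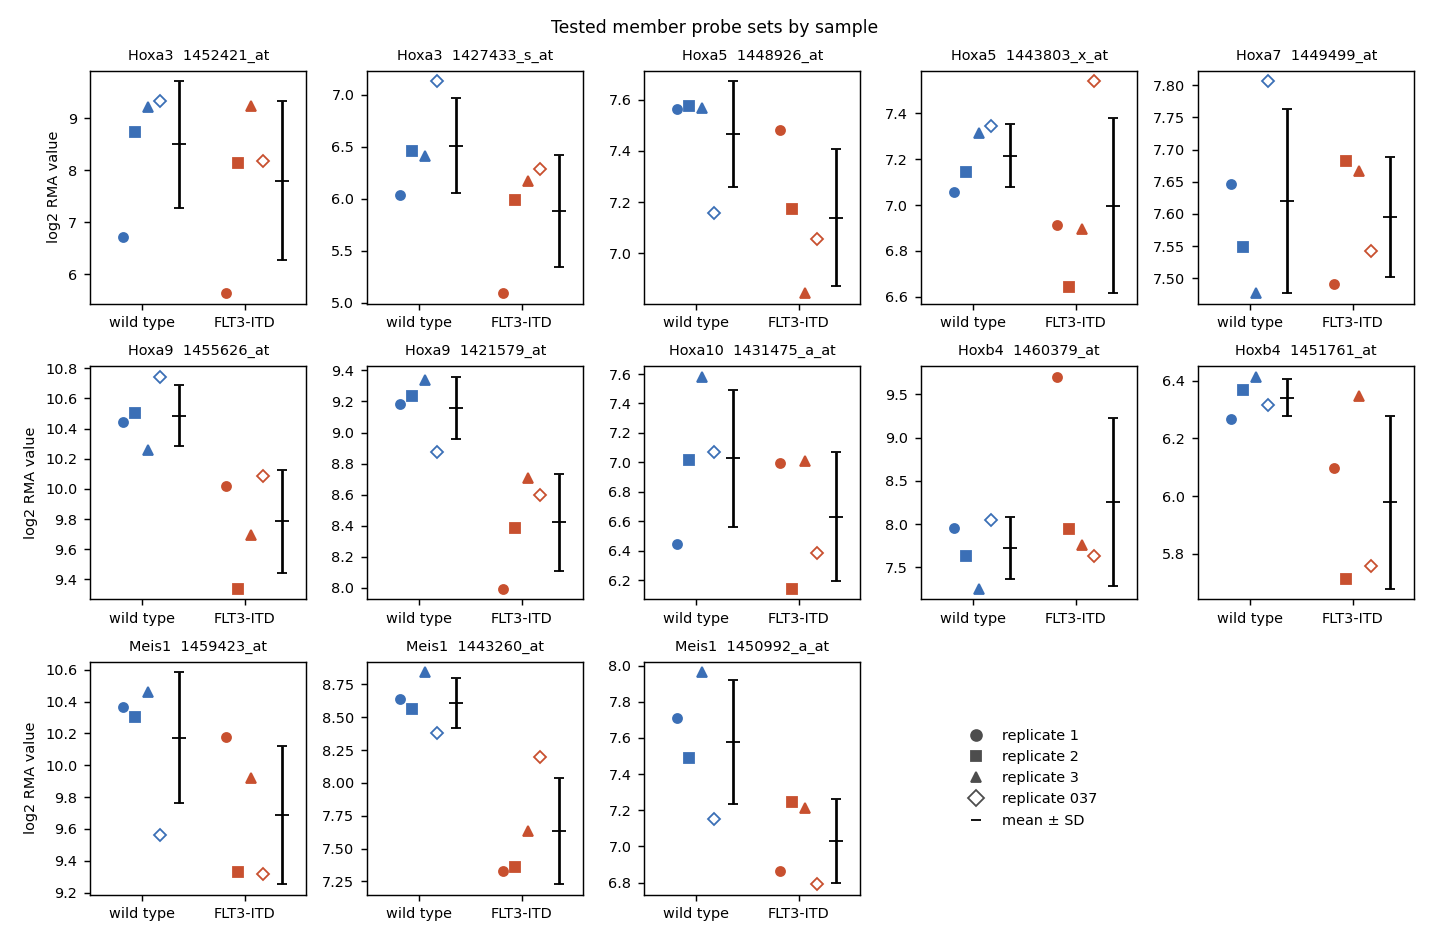
Log2 expression of the 13 tested member probe sets in each of 8 samples, 1 panel per probe set, with wild type and FLT3-ITD side by side and a bar at each mean. In both Hoxa9 panels and in Meis1 1443260_at all 4 FLT3-ITD points lie below all 4 wild type points, and 1 high FLT3-ITD point, replicate 1 at 9.70, stands out for Hoxb4 1460379_at.

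**Figure D2:**
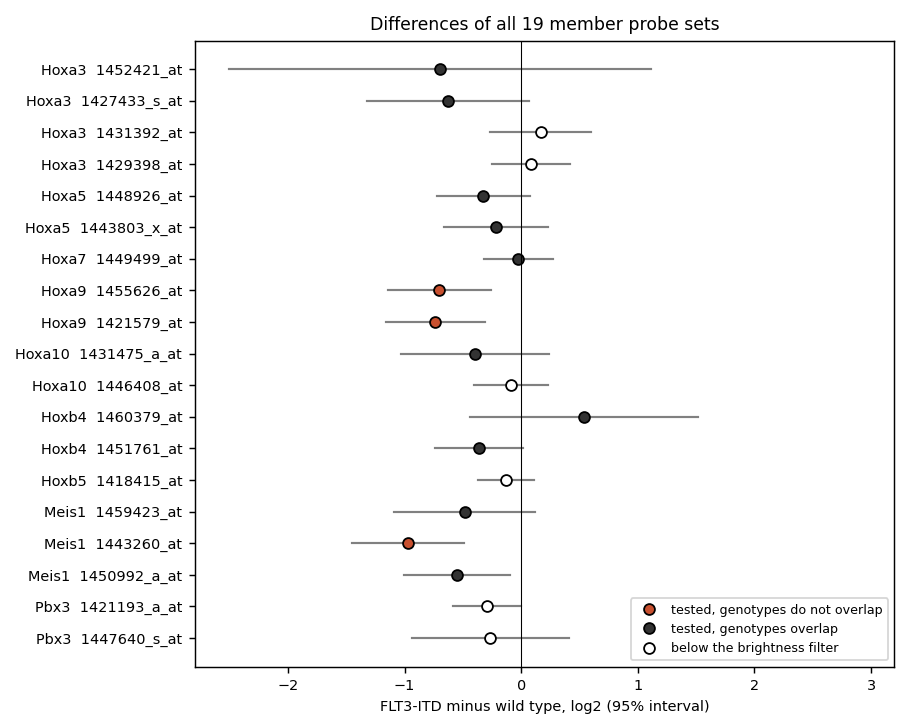
FLT3-ITD minus wild type difference on the log2 scale for all 19 member probe sets, with the 95% interval from the limma fit (for the open points, too dim to be tested, from a fit without the brightness filter). The 3 probe sets whose genotypes do not overlap lie between −0.97 and −0.70, and 16 of the 19 points lie left of 0.

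Hoxa9, the HOXA gene most tied to progenitor self-renewal and leukaemia, was read by a pair of probe sets. Hoxa9 1455626_at read 10.44, 10.50, 10.26 and 10.74 in wild type replicates 1, 2, 3 and 037, and 10.02, 9.34, 9.69 and 10.09 in the same order in FLT3-ITD. Every FLT3-ITD sample lay below every wild type sample, with a gap of 0.17 between the groups. The difference was −0.70 ± 0.20 (SE; limma adjusted p = 0.280), with a 95% interval from −1.14 to −0.26. On the linear scale the FLT3-ITD mean corresponded to 61.5% of wild type. The exact permutation p was 0.0286, the smallest that 4 against 4 samples can give.

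Hoxa9 1421579_at read 9.18, 9.24, 9.34 and 8.87 in wild type and 7.99, 8.38, 8.71 and 8.60 in FLT3-ITD. The genotypes again did not overlap. The difference was −0.74 ± 0.19 (SE; limma adjusted p = 0.209; exact permutation p = 0.0286), with a 95% interval from −1.16 to −0.31, and the FLT3-ITD mean was 60.0% of wild type. The probe sets gave nearly the same difference but did not order the samples alike. Wild type replicate 037 was the highest wild type sample in 1455626_at and the lowest in 1421579_at. The lowest FLT3-ITD sample was replicate 2 in the former and replicate 1 in the latter.

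Averaging both probe sets of Hoxa9 narrowed the spread between samples. The averages were 9.81, 9.87, 9.80 and 9.81 in wild type and 9.01, 8.86, 9.20 and 9.34 in FLT3-ITD. The wild type samples lay close together and all FLT3-ITD samples below them. In the limma fit on per-gene means over probe sets, in which 9338 genes were tested, Hoxa9 differed by −0.72 ± 0.13 (SE) and passed the threshold (adjusted p = 0.0376). With the brightest probe set as the reading it did not pass (limma adjusted p = 0.239). The call for Hoxa9 therefore depended on how its probe sets were combined, while the difference itself lay between −0.80 and −0.55 when any sample was left out of the brightest reading.

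Meis1, the TALE cofactor that acts with HOXA9, had 3 probe sets, all with negative differences. Meis1 1443260_at read 8.64, 8.56, 8.84 and 8.38 in wild type replicates 1, 2, 3 and 037, and 7.33, 7.36, 7.64 and 8.20 in FLT3-ITD. The genotypes did not overlap, though FLT3-ITD replicate 037 was close to the wild type samples. The difference was −0.97 ± 0.21 (SE; limma adjusted p = 0.134; exact permutation p = 0.0286), with a 95% interval from −1.45 to −0.49. The FLT3-ITD mean was 50.9% of wild type. Without FLT3-ITD replicate 037, the sample with the highest Gapdh 3′ minus 5′ difference, the value was −1.16 and passed (limma adjusted p = 0.0396). With other single samples left out the adjusted p was 0.202 to 0.343.

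Meis1 1450992_a_at read 7.71, 7.49, 7.96 and 7.15 in wild type and 6.87, 7.25, 7.21 and 6.79 in FLT3-ITD. Wild type replicate 037 lay among the FLT3-ITD samples. The difference was −0.55 ± 0.20 (SE; limma adjusted p = 0.457; exact permutation p = 0.0857). Meis1 1459423_at, the brightest probe set, read 10.37, 10.30, 10.46 and 9.56 in wild type and 10.18, 9.33, 9.92 and 9.32 in FLT3-ITD. The genotypes overlapped, with wild type replicate 037 lowest in its genotype as in the other probe sets of this gene. The difference was −0.49 ± 0.27 (SE; limma adjusted p = 0.643; exact permutation p = 0.171). The mean over the 3 probe sets differed by −0.67 ± 0.16 (SE) and missed the threshold (limma adjusted p = 0.121). It read 8.90, 8.78, 9.09 and 8.37 in wild type and 8.12, 7.98, 8.26 and 8.10 in FLT3-ITD, without overlap between genotypes.

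**Figure D3:**
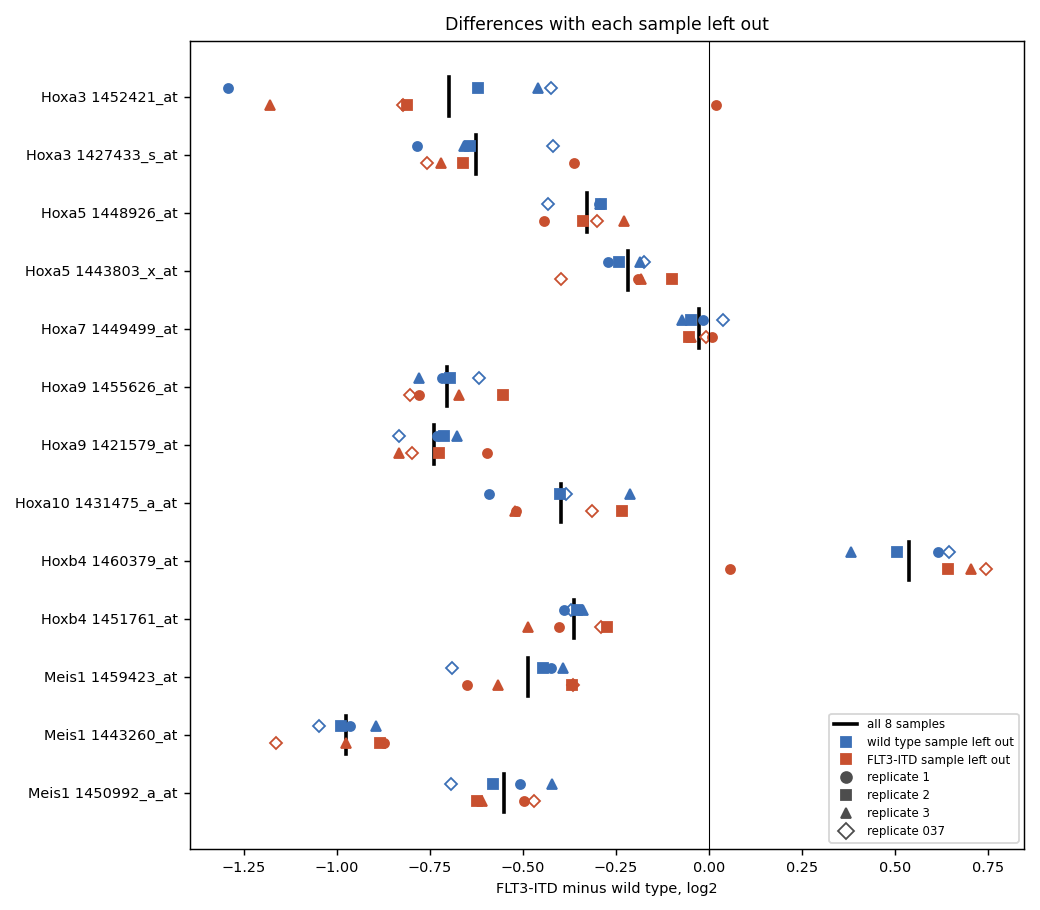
Differences of the tested member probe sets on the log2 scale, with all 8 samples and with each sample left out in turn. The values of Hoxa9 and Meis1 stay left of 0 whichever sample is left out, while Hoxa3 1452421_at runs from −1.29 to 0.02 and Hoxb4 1460379_at from 0.06 to 0.75.

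The other HOXA members did not separate the genotypes. Hoxa10, a neighbour of Hoxa9 in the cluster on chromosome 6 that is also active in early myeloid progenitors, read 6.45, 7.02, 7.58 and 7.07 in wild type and 6.99, 6.14, 7.01 and 6.39 in FLT3-ITD (1431475_a_at). The groups overlapped, and the difference was −0.40 ± 0.28 (SE; limma adjusted p = 0.741). Its other probe set was too dim to test, at 2.88 to 3.36 in wild type and 2.86 to 3.21 in FLT3-ITD.

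Hoxa5, a HOXA gene expressed in early haematopoietic cells, was read by a pair of probe sets. The brighter, 1448926_at, read 7.56, 7.58, 7.57 and 7.16 in wild type and 7.48, 7.17, 6.84 and 7.05 in FLT3-ITD. Wild type replicate 037 lay among the FLT3-ITD samples, and the difference was −0.33 ± 0.18 (SE; limma adjusted p = 0.634). For 1443803_x_at the difference was −0.22 ± 0.20 (SE; limma adjusted p = 0.803), with FLT3-ITD replicate 037 the highest of all 8 samples at 7.54. Hoxa7 1449499_at read 7.65, 7.55, 7.48 and 7.81 in wild type and 7.49, 7.68, 7.67 and 7.54 in FLT3-ITD. Its samples were intermixed, with a difference of −0.02 ± 0.13 (SE; limma adjusted p = 0.977) and a 95% interval from −0.32 to 0.27, which leaves out differences as large as those of Hoxa9.

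Hoxa3, an anterior HOXA gene known from blood-forming endothelium in the mouse embryo, varied most between samples. Hoxa3 1452421_at read 6.71, 8.73, 9.21 and 9.32 in wild type and 5.64, 8.13, 9.24 and 8.17 in FLT3-ITD. Replicate 1 was the lowest sample in both genotypes, and the difference of −0.70 ± 0.80 (SE; limma adjusted p = 0.845) became 0.02 without FLT3-ITD replicate 1. The same samples were lowest in Hoxa3 1427433_s_at, which read 6.04, 6.46, 6.41 and 7.13 in wild type and 5.09, 5.99, 6.17 and 6.28 in FLT3-ITD. That difference was −0.63 ± 0.31 (SE; limma adjusted p = 0.594), with overlap between genotypes. The remaining pair of Hoxa3 probe sets was too dim to test and gave 0.17 and 0.08. The annotated span of Hoxa3 overlaps that of Hoxa5, and whether their probes share targets was not tested.

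The HOXB genes of chromosome 11 gave no common direction. Hoxb4, a factor whose forced expression expands mouse blood stem cells, read 7.96, 7.63, 7.26 and 8.04 in wild type and 9.70, 7.94, 7.76 and 7.63 in FLT3-ITD (1460379_at). FLT3-ITD replicate 1 stood above all other samples and the rest were intermixed. The difference of 0.54 ± 0.43 (SE; limma adjusted p = 0.770) became 0.06 without that sample. The other probe set, 1451761_at, read 6.27, 6.37, 6.41 and 6.32 in wild type and 6.10, 5.71, 6.35 and 5.76 in FLT3-ITD. There 3 of 4 FLT3-ITD samples lay below all wild type samples, and the difference was −0.36 ± 0.17 (SE; limma adjusted p = 0.567). The 2 probe sets of Hoxb4 thus had opposite signs, neither past the threshold.

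Hoxb5, a gene used to mark long-term stem cells in mice, lay below the array median on every array. It read 4.43, 4.23, 4.38 and 4.33 in wild type and 4.32, 4.06, 4.24 and 4.25 in FLT3-ITD. The groups overlapped, with a difference of −0.13 (exact permutation p = 0.143). Pbx3, a TALE cofactor of HOXA9 in human leukaemia, was also below the median on every array. Pbx3 1421193_a_at read 5.87, 5.90, 5.67 and 5.80 in wild type and 5.49, 5.25, 5.62 and 5.70 in FLT3-ITD. In FLT3-ITD 3 of 4 samples lay below all wild type samples, and the difference was −0.30 (exact permutation p = 0.0571). The second Pbx3 probe set differed by −0.26 with wide overlap (exact permutation p = 0.429).

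Other HOX genes were mostly dim in these cells. Of 32 such genes 26 had a probe set here, and 26 of their 34 probe sets lay above the array median on no array. Only 4 were tested, none passed, and their median difference was 0.03. Hoxb3, which overlaps Hoxb4 in the annotation, read 6.29, 7.17, 6.35 and 6.74 in wild type and 5.35, 5.70, 6.10 and 5.98 in FLT3-ITD. Its genotypes did not overlap, and its difference was −0.85 ± 0.24 (SE; limma adjusted p = 0.255). Of the 34 probe sets 4 did not overlap between genotypes, and this Hoxb3 probe set was the only lower one. Hoxa13, Hoxb1 and 1 of 3 Hoxc6 probe sets, too dim to test, were higher by 0.21, 0.38 and 0.385 (exact permutation p = 0.0286 each). Hoxd12 differed by 0.18 (limma adjusted p = 0.695). Of 10 other TALE genes 8 were tested and none passed, with a median of 0.02. Tgif2, a TALE repressor, differed by −0.25 (limma adjusted p = 0.732) and Pknox1, a MEIS relative, by 0.29 (limma adjusted p = 0.831). The Pknox1 probe sets disagreed, at 0.58, 0.29 and −0.31.

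Genes that keep HOX loci active, among them the MLL complex and its partners, did not pass in either direction. Of 21 tested, 10 had negative differences, and the median was 0.03 against 0.02 over all tested genes. Kat6a, an acetyltransferase needed for Hoxa9 expression in mouse progenitors, differed by −0.67 ± 0.22 (SE; limma adjusted p = 0.365), and by −0.38 with its probe sets averaged. Aff4, a subunit of the super elongation complex, differed by −0.36 ± 0.12 (SE; limma adjusted p = 0.347). Neither overlapped between genotypes in its brightest probe set. Of 16 tested Polycomb genes, whose products silence HOX loci, none passed and 11 had negative differences, with a median of −0.10. Asxl1 differed by 0.43 (limma adjusted p = 0.595) and Pcgf2 by −0.46 (limma adjusted p = 0.605).

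Genes known as targets of HOXA9 and MEIS1 gave 1 rise and 1 fall among 21 tested, with 14 negative differences and a median of −0.08. Id2, an inhibitor of basic helix-loop-helix factors, rose by 3.76 ± 0.28 (SE; limma adjusted p = 0.000765), and by 2.15 with its probe sets averaged. Id2 read 4.75 to 5.67 in wild type, below all array medians, so it was tested through its FLT3-ITD arrays alone. Flt3, the altered gene and a target of MEIS1, fell by 1.17 ± 0.20 (SE; limma adjusted p = 0.0406). In the fit on probe sets, used for the member probe sets, the same Flt3 reading did not pass (limma adjusted p = 0.0533). The Flt3 call was lost in 11 of 20 alternatives, among them leaving out any sample other than FLT3-ITD replicate 1, with limma adjusted p up to 0.168. Ccl3 and Ccl4, chemokine genes, differed by −1.14 (limma adjusted p = 0.147) and −0.81 (limma adjusted p = 0.103), and Sox4, a progenitor transcription factor, by −0.50 (limma adjusted p = 0.249). None of these 3 passed.

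**Figure D4:**
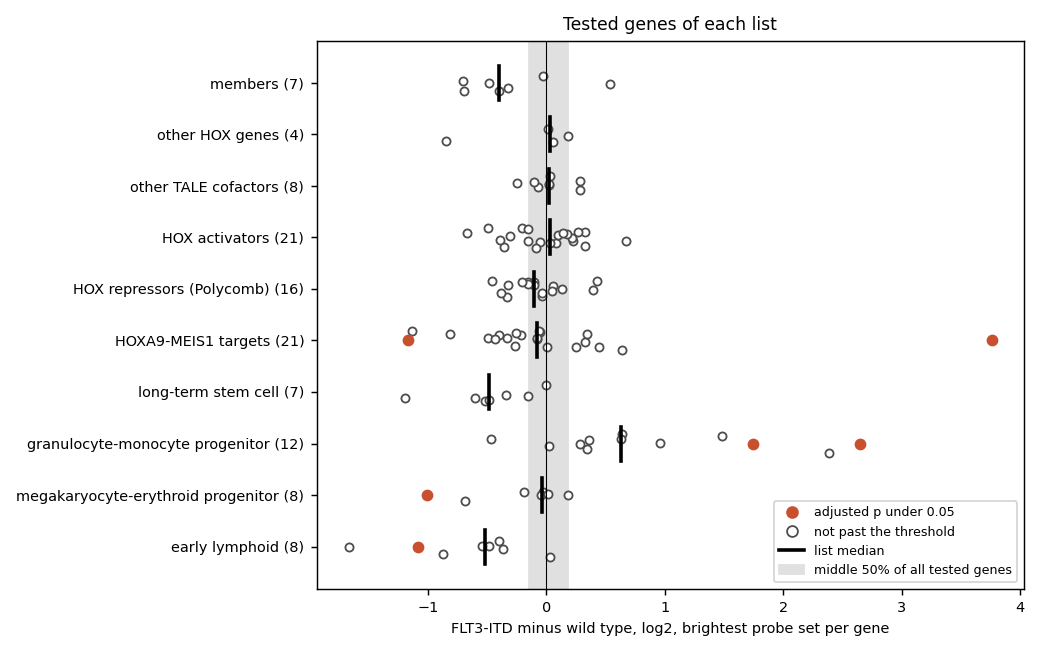
Differences on the log2 scale of the tested genes in each list, 1 point per gene, filled where the gene passed the limma threshold, with a bar at each list's median and a shaded band from −0.14 to 0.18, the quartiles of all tested genes. The HOX and TALE lists and the lists of HOX regulators hold no filled point, whereas 1 target gene, Id2, lies far to the right at 3.76 and Flt3 at −1.17.

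Several lists of cell type markers separated the genotypes by their mean level. The mean level of the 7 tested members overlapped, at 8.16 to 8.54 in wild type and 7.96 to 8.30 in FLT3-ITD. All 7 tested long-term stem cell markers had negative differences, from −1.19 to −0.003, and none passed. Another 7 on the array were too dim to test. Over all tested genes 46.3% had a negative difference, which is the background for each list. Their mean level was 8.16 to 8.45 in wild type and 7.40 to 8.14 in FLT3-ITD, without overlap. That list contains Meis1. Hlf, a stem cell transcription factor, differed by −1.19 ± 0.33 (SE; limma adjusted p = 0.247), or −0.79 with its probe sets averaged, while Slamf1, which encodes CD150, was too dim to test. Early lymphoid markers had 7 of 8 negative differences, a mean level of 8.77 to 8.98 in wild type and 7.90 to 8.37 in FLT3-ITD, and 1 gene past the threshold, Satb1, which fell by 1.08 (limma adjusted p = 0.0350). The Satb1 call was lost in 11 of 20 alternatives, among them leaving out any sample other than FLT3-ITD replicate 1 or 3, with limma adjusted p up to 0.168.

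Granulocyte-monocyte progenitor markers ran the other way, with 11 of 12 positive and mean levels of 7.84 to 8.25 in wild type and 8.64 to 9.48 in FLT3-ITD. Ctsg, a granule protease, rose by 1.74 (limma adjusted p = 0.00734) and Irf8, a monocyte and dendritic cell factor, by 2.64 (limma adjusted p = 0.00740). The Ctsg call was lost with the replicate block (limma adjusted p = 0.0505) and without both 037 samples (limma adjusted p = 0.0717). Dendritic cell markers had a mean level of 7.12 to 7.19 in wild type and 9.09 to 10.31 in FLT3-ITD, and 4 of 7 rose, all of the antigen presentation machinery, for example Cd74 by 4.12 and H2-Aa by 3.13. Of 4 monocyte-macrophage markers Ccr2 rose, by 3.62 (limma adjusted p = 0.0213). It read 5.37, 3.68, 5.71 and 6.27 in wild type, mostly below the array medians. The Ccr2 call was lost with the replicate block (limma adjusted p = 0.0905). It was also lost on leaving out replicate 1 or 3 of wild type or replicate 2 or 3 of FLT3-ITD. The other markers of this list did not pass. Vcam1 differed by −0.87 (limma adjusted p = 0.317), Csf1r by 0.96 and Cd68 by 0.26. Of 3 erythrocyte markers Hbb-b2 fell by 2.76 and Slc4a1 fell by 2.10, and of 8 megakaryocyte-erythroid markers Car2 fell by 1.01 (limma adjusted p = 0.0449). In the fit on probe sets Car2 did not pass (limma adjusted p = 0.061). The Car2 call was lost in 14 of 20 alternatives, among them leaving out any sample other than wild type replicate 1, with limma adjusted p up to 0.194. The Slc4a1 call was lost in 10 of 19, among them leaving out any sample other than replicate 3 of either genotype, with limma adjusted p up to 0.213. In FLT3-ITD Slc4a1 read 4.37 to 5.89, below all array medians, so it was tested through its wild type arrays alone. The Hbb-b2 call was lost without both 037 samples (limma adjusted p = 0.0710), and Hbb-b2 fell by 1.45 with its probe sets averaged. Cd48, part of the sorting gate, rose by 1.06 (limma adjusted p = 0.00740), but not past the threshold with the replicate block (limma adjusted p = 0.0573). Kit, another gate marker, differed by −0.47 (limma adjusted p = 0.427). The part of these cell type differences in the values of Hoxa9 and Meis1 was not tested.

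The remaining marker lists held no gene past the threshold with all 8 samples. Mature neutrophil markers were negative in 6 of 6, with Ngp at −2.39 (limma adjusted p = 0.255) and Ltf at −0.77 (limma adjusted p = 0.482), but their mean levels overlapped between genotypes. Without FLT3-ITD replicate 2 the Ngp value was −3.10 and passed (limma adjusted p = 0.0278). B cell markers Vpreb1 and Igll1 differed by −0.30 and 0.13 (limma adjusted p = 0.868 and 0.861). T cell markers Cd8a and Cd4 differed by 0.55 and 0.06, and stromal markers Pdgfrb and Col1a1 by −0.40 and −0.04. With its probe sets averaged Pdgfrb differed by −1.04 (limma adjusted p = 0.326). With the probe set of largest variance it differed by −1.68 (limma adjusted p = 0.469).

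The genes whose values followed Hoxa9 most closely over the 8 arrays, among 10755 tested genes outside the 9, were Ldhb, a lactate dehydrogenase subunit (r = 0.966), Tespa1, a gene of thymocyte receptor signalling (r = 0.935), and Irgc1 (r = 0.922). Closest to the brightest Meis1 probe set were Cox11, a cytochrome oxidase assembly factor (r = 0.983), Mir1931 (r = 0.952) and Csgalnact1, an enzyme of chondroitin sulphate synthesis (r = 0.951). These correlations describe 8 arrays that share the genotype split, and no test was made of them. Of these 6 genes Tespa1 came closest to the threshold, at −0.64 ± 0.11 (SE; limma adjusted p = 0.0546). Tespa1 passed without a brightness filter (limma adjusted p = 0.0427) and with array weights (limma adjusted p = 0.0293), and with its probe sets averaged it differed by −0.37 (limma adjusted p = 0.475).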

How the data were processed

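RNA from 8 samples, 4 per genotype, was measured on 1 array each. RNA had been isolated with Trizol and amplified by the NuGEN WT-Ovation Pico system, per the labels' protocols. The deposited table holds log2 values, 1 per probe set and array, computed with RMA per the submitters' processing notes. The RMA version was not given in the sources used here. Scanner files were not used here, so signal over background is unknown, and the number of arrays limits the precision. Of 45101 probe sets, 64 were controls, 34945 had exactly 1 gene in the platform annotation, 932 several and 9160 none; only the single-gene ones were used. Symbols were updated through Entrez IDs for 34741. Coordinates and promoters are from RefSeq GRCm38.p6.

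Genotypes were compared with limma 3.58.1 in R 4.3.3 (lmFit and eBayes, no covariate), on all probe sets exceeding the median of the array in 4 or more arrays and on 1 probe set per gene, the brightest, with Benjamini-Hochberg adjustment over all tested features and a threshold of 0.05. Single probe sets were also compared by exact two-sided permutation. Tests were checked on simulated data. Same-numbered samples of the genotypes correlated at 0.027 to 0.110 in their deviations, and differently numbered ones at −0.089 to 0.054. The same-numbered values were small but all positive, so this check does not exclude pairing. The numbers were not treated as pairs, and a block for them was fitted as an alternative.

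The members and lists were chosen with earlier results of these data known. The genes named were the 9 members, Flt3 and the 3 genes most like Hoxa9 and Meis1. List members past the test (at most 6) were also named, or the 2 of smallest p where none passed. Sox4, Ccl3, Ccl4, Vcam1, Csf1r, Cd68, Hoxa13, Hoxb1 and Hoxc6 were chosen after their values were seen. Alternatives covered the replicate numbers, the tag 037, filter, normalization, variance model, array weights, probe set choice and leaving out each sample; the count of members without overlap was repeated without each sample as an addition after seeing the data. Figures were drawn with matplotlib 3.10.9.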

Additional observations from a re-analysis of the deposited data

Results flagged for a closer look

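Among 112 groups of 4 values examined, 4 held a sample whose gap to its neighbour, relative to the range of its group, exceeded Dixon's 95% critical value. Chance flags about 1 in 20 groups. For Hoxa5 1448926_at, wild type replicate 037 read 7.16 while the other wild type samples read 7.56 to 7.58. For Hoxb4 1460379_at, FLT3-ITD replicate 1 read 9.70 against 7.63 to 7.94 in the others. For Car2, FLT3-ITD replicate 2 read 9.76 against 10.23 to 10.31. For H2-Eb1, wild type replicate 3 read 5.88 against 6.73 to 6.83.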

How the results depend on the processing

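The number of genes past the threshold moved with several choices. Against 46 higher and 19 lower genes, the replicate block gave 19 and 3, leaving out both 037 samples 26 and 5, and requiring all 8 arrays above the median 18 and 7. Array weights gave 30 lower genes, and leaving out single samples gave 28 to 45 higher and 2 to 14 lower. For probe sets, 57 higher and 23 lower, the replicate block gave 25 and 4, the filter on all 8 arrays 21 and 8, array weights 92 and 44, and single samples left out 36 to 58 and 2 to 15. Lower probe sets numbered 13 with replicates 1 and 037 averaged, 7 with the tag 037 as a block, 3 without both 037 samples and 7 without a filter. No single or brightest member probe set had passed, so the replicate block had no member call to remove, and it added none. With single samples left out, negative members numbered 10 to 12 of 13. Members without overlap numbered 3 to 6, while the share of all tested probe sets without overlap and lower was 3.77% to 4.77%; leaving a sample out can only reduce overlap. The member calls that did change were Hoxa9 with its probe sets averaged and Meis1 1443260_at without FLT3-ITD replicate 037, both gained. Differences near 0 changed sign: Hoxa7 gave 0.037 with replicates 1 and 037 averaged, 0.055 without both 037 samples, 0.0377 (fit on genes) and 0.0397 (fit on probe sets) with array weights, and −0.072 to 0.0375 with single samples left out, while Hoxa3 gave −1.29 to 0.020. Asxl1 gave −0.16 and Tgif2 0.088 with the probe set of largest variance. Cd4 gave −0.050 without both 037 samples and −0.040 with probe sets averaged. With single samples left out Cd4 ranged from −0.023 to 0.15, Col1a1 from −0.11 to 0.023 and Pknox1 from −0.035 to 0.53. Over all alternatives, left-out samples included, the limma adjusted p reached 0.168 for Flt3 (call lost in 11 of 20), 0.168 for Satb1 (11 of 20), 0.194 for Car2 (14 of 20), 0.213 for Slc4a1 (10 of 19), 0.0905 for Ccr2 (5 of 19), 0.0717 for Ctsg (2 of 20), 0.0710 for Hbb-b2 (1 of 20) and 0.0573 for Cd48 (1 of 20). The causes were not tested.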
